A study of Mus musculus with 31 samples.

Results

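Alveolar macrophages (AM) of mice never exposed to cigarette smoke (CS) were compared by RNA sequencing between mice without RAGE, a receptor of glycated proteins, (RAGE null) and wild-type (WT) mice at the 4-month time point. The comparison rests on 8 of the 31 libraries of the study, chosen by their labels alone. RAGE null mice gave 4 of these libraries (C57BL6 strain, RAGE null genotype, control exposure, 4 months) and WT mice gave the other 4 (C57BL6 strain, wild-type genotype, control exposure, 4 months). All genes of the count table were examined. The remaining libraries come from the same genotypes after CS at 4 months and after CS or control conditions at 7 days.

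The RAGE null mice were homozygous for a null allele of Ager, the gene of RAGE, in every cell of the body. All mice were male, were age matched young adults when the exposures began, and breathed room air in the control groups. WT mice came from a colony founded with Jackson Laboratory animals, and RAGE null mice from a separate colony founded with donated breeding pairs on a C57BL/6 background. Genotype and colony therefore cannot be told apart in any comparison below. The labels do not say that each library is a separate mouse, although the methods count 4 mice per group at 4 months, so the p-values measure the spread between libraries. For the tests across all genes, that spread was estimated from all 16 libraries of 4 months, those after CS included.

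RAGE is a cell surface receptor of the immunoglobulin superfamily that binds advanced glycation end products, S100 proteins and HMGB1 and signals to NF-κB. In the unchallenged lung it is best known from type 1 alveolar epithelial cells, where it is abundant, and much less from macrophages. AM are the resident phagocytes of the airspace. They clear surfactant lipid, inhaled particles and dying cells, and their identity depends on PPARγ and on growth factors made by the alveolar epithelium.

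Cells were taken as recovered by bronchoalveolar lavage and were not sorted. Total counts ran from 13458715 to 19674017 in RAGE null and from 12769797 to 34492288 in WT control libraries, and WT replicate 1 was the deepest. Levels are given as CPM, counts scaled to the library total after TMM normalization, and compare 1 gene between libraries rather than different genes. The AM label was checked against 14 AM markers, whose summed level ran from 23043 to 25721 CPM in RAGE null and from 21362 to 24157 CPM in WT libraries. None of the 14 was called by edgeR's quasi-likelihood test or DESeq2. However, 2 were higher and 2 lower at an adjusted p under 0.05 with changes under 1.5-fold, whereas 21.3% of all genes passed that p. At an unadjusted p under 0.05, 2 were higher and 3 lower. The median log2 fold change of the 14 was 0.09 with all libraries, and 2 were called without RAGE null replicate 2. The WT libraries resembled each other closely (Pearson r of log2 CPM 0.990 to 0.994 across genes), and the RAGE null libraries less so (0.973 to 0.989). On the first principal component of the 8 libraries, which held 50.7% of the variance, RAGE null replicates 0, 1 and 3 lay at -38.6, -36.8 and -26.1, whereas the WT libraries lay between 22.1 and 29.1. RAGE null replicate 2 stood apart at 3.14. It had 94.9 CPM in the sum of 10 type 1 epithelial markers, against 189 to 224 CPM in the other RAGE null and 117 to 140 CPM in the WT libraries. Results that rest on the RAGE null group are therefore given with and without this library where it changes them.

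Ager itself was counted in every library, at a low level. The libraries labelled RAGE null held 2.79, 3.8, 2.63 and 3.71 CPM of Ager (replicates 0 to 3), against 2.44, 1.37, 1.61 and 1.65 CPM in WT libraries. Every RAGE null library lay above every WT library. The mean was 3.23 ± 0.608 CPM in RAGE null and 1.77 ± 0.467 CPM in WT (SD, n = 4 each), a difference of 1.47 CPM (2-sided exact permutation test, p = 0.0286, the smallest that 4 against 4 allows). In edgeR's quasi-likelihood test across all genes the log2 fold change was 0.90 ± 0.25 (SE, adjusted p = 0.0206). Without RAGE null replicate 1, RAGE null replicate 3 or WT replicate 1 the exact p was 0.0571, with differences of 1.28, 1.31 and 1.33 CPM. Ager lies at chr17:34597862-34600934 of mm10. The counts are per gene and do not show which exons the reads came from, so this measurement does not check the genotype labels, and the genotypes below are those of the labels. At 7 days the direction was the other way, with a log2 fold change of -0.38 (adjusted p = 0.177) between control libraries, and the change from 7 days to 4 months was 1.28 on the log2 scale (edgeR's quasi-likelihood test, adjusted p = 0.0249, and 0.0677 when only the 15 control libraries were fitted).

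Across the transcriptome, 909 of 13045 genes tested (6.97%) differed between RAGE null and WT controls at an adjusted p under 0.05 in edgeR's quasi-likelihood test with a change of 1.5-fold or more, the call used throughout. Of these, 461 (3.53% of genes tested) were higher and 448 (3.43%) were lower in RAGE null mice. Without the fold threshold 2777 genes passed (1475 higher, 1302 lower). The groups did not overlap in 2628 genes (20.1%) and in 593 of the called genes. The number of calls depended on RAGE null replicate 2: without it 1481 genes were called. Without any single other library the count ran from 647 to 903. With the 8 control libraries fitted alone, without the CS libraries, 604 genes were called. The median log2 fold change of all genes was 0.004, a value that the TMM scaling sets near 0.

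Among called genes with a mean of at least 1 on the log2 CPM scale and groups that did not overlap, the largest increases were in surfactant and alveolar epithelial genes. Sftpc, the surfactant protein made by type 2 alveolar cells, had 56.3, 28.5, 3.17 and 97.0 CPM in RAGE null libraries, against 1.76, 1.4, 2.39 and 1.77 CPM in WT libraries. The spread within the RAGE null group was wide, and replicate 2 sat close to the WT values. The log2 fold change was 4.69 ± 0.70 (SE, edgeR's quasi-likelihood test, adjusted p = 7.49e-04). Sftpa1, another surfactant protein, had 18.8, 9.94, 1.98 and 34.2 CPM in RAGE null libraries, against 1.60, 1.14, 0.944 and 1.4 CPM in WT libraries (log2 fold change 3.70 ± 0.63). Lmo7, an actin-associated adaptor listed here with type 1 cells, and Gprc5a, an orphan receptor of lung epithelium, had log2 fold changes of 3.49 ± 0.54 and 3.34 ± 0.48. In all 4 genes RAGE null replicate 2 was the lowest of its group.

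Other genes rose in all 4 RAGE null libraries, replicate 2 included. Crim1, a transmembrane protein that binds bone morphogenetic proteins, had 63.6, 52.4, 52.1 and 64.2 CPM in RAGE null libraries, against 6.87, 7.61, 6.5 and 7.02 CPM in WT libraries. The groups were far apart, with a log2 fold change of 3.04 ± 0.15 (adjusted p = 5.49e-09), and it lies at chr17:78200248-78376592. Emilin2, an elastin-associated matrix glycoprotein, lies at chr17:71252174-71311556, like Crim1 on the chromosome of Ager. It had 399, 386, 323 and 398 CPM in RAGE null libraries, against 116, 78.7, 101 and 114 CPM in WT libraries (log2 fold change 1.88 ± 0.14, edgeR's quasi-likelihood test, adjusted p = 9.84e-07). The values within each group were close for both genes. Cspg4, a chondroitin sulfate proteoglycan of pericytes, had 25.6, 16.7, 28.2 and 49.1 CPM in RAGE null libraries, against 5.88, 5.53, 3.28 and 3.54 CPM in WT libraries (log2 fold change 2.71 ± 0.36). Replicate 2 was not low in Cspg4, unlike in the surfactant genes.

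Cd14, the co-receptor through which Toll-like receptor 4 senses lipopolysaccharide, had 321, 713, 163 and 353 CPM in RAGE null libraries, against 66.9, 73.4, 80.04 and 86.9 CPM in WT libraries. Its log2 fold change was 2.33 ± 0.34 (adjusted p = 5.89e-04), the groups did not overlap, and no alternative lost the call. H2-T10, which encodes a class I histocompatibility protein of the nonclassical type, had 19.6, 21.5, 9.42 and 18.8 CPM in RAGE null libraries, against 4.43, 3.33, 3.33 and 3.30 CPM in WT libraries (log2 fold change 2.28 ± 0.20). Hs3st3b1, a heparan sulfate sulfotransferase, had 45.8, 59.1, 15.8 and 32.9 CPM in RAGE null libraries, against 11.1, 6.49, 7.28 and 13.5 CPM in WT libraries (log2 fold change 2.02 ± 0.36). The transcripts Gm15726 and A930015D03Rik, the polarity gene Pard3b and the orphan receptor Gpr171 complete the named increases, with log2 fold changes of 2.39, 2.24, 2.22 and 1.95. A930015D03Rik is listed under 2 identifiers with the same counts. Pard3b and Gpr171 were no longer called without RAGE null replicates 0 and 1 (adjusted p = 0.08 and 0.0895), a choice made after the data were seen.

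**Figure D1:**
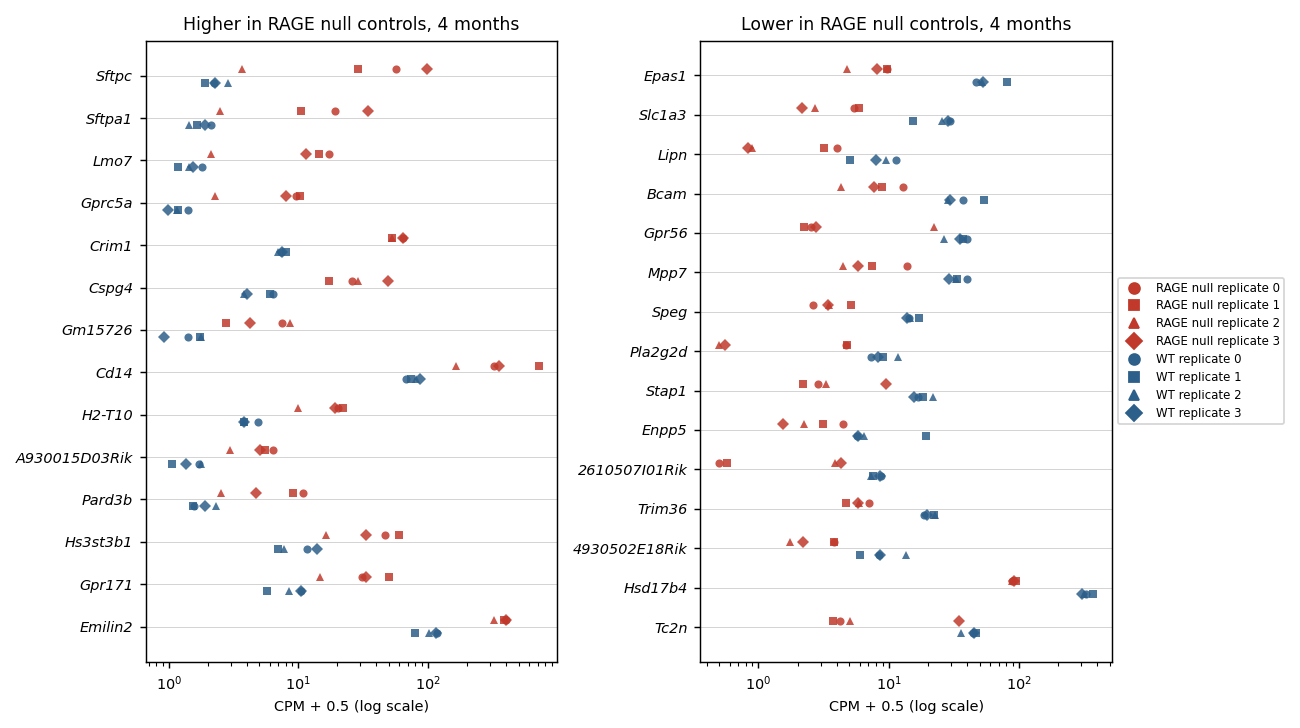
Level (CPM + 0.5, log axis) of the genes with the largest increases (left panel) and decreases (right panel) in the 8 control libraries, 1 point per library, with RAGE null (red) above WT (blue) for every gene and the replicate given by the symbol. Crim1 and Emilin2 form tight groups, whereas Sftpc ranges from 3.17 to 97.0 CPM among RAGE null libraries and lies between 1.4 and 2.39 CPM in all WT libraries.

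Epithelial markers were called more often than genes at large, of which 3.53% were called higher. Of 11 type 2 markers tested, 9 rose and none fell, with a median log2 fold change of 3.37. Of 10 type 1 markers, 7 rose and none fell (median 1.92), as did 5 of 7 general epithelial markers (median 1.42), of which 3 were called without RAGE null replicate 0 or 3 or WT replicate 1 or 3. Clic5, a chloride channel protein of type 1 cells, had 7.64, 8.12, 0.893 and 5.92 CPM in RAGE null libraries, against 0.687, 0.484, 0.389 and 0.489 CPM in WT libraries. Aqp5, the water channel of type 1 cells, averaged 4.37 ± 2.45 CPM in RAGE null and 0.570 ± 0.344 CPM in WT libraries (SD, n = 4 each), and its groups overlapped because replicate 2 held 0.794 CPM. Sftpb, which spreads surfactant at the air surface, had 20.5, 14.0, 0.794 and 31.0 CPM in RAGE null libraries, against 1.68, 0.741, 1.44 and 0.794 CPM in WT libraries. Replicate 2 thus fell within the WT range for Sftpb. Sftpd, a surfactant collectin, Cldn18, a claudin of alveolar tight junctions, and Krt18, an epithelial keratin, rose by 3.60, 3.06 and 2.44 on the log2 scale. Without replicate 2, 9 type 2 and 7 type 1 markers were called, and without any other single library 8 or 9 and 5 to 7. With a minimum of 20 counts in every library, 1 marker of each list was called, because few of them passed that minimum in WT libraries.

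Not every epithelial marker moved. Napsa and Abca3, both used as type 2 markers, stood at 65.2 ± 4.93 and 171 ± 6.17 CPM in RAGE null libraries, against 63.1 ± 9.15 and 157 ± 5.37 CPM in WT libraries (SD, n = 4 each), and neither was called. Cdh1, which encodes E-cadherin and which AM also express, averaged 78.4 ± 9.40 CPM in RAGE null and 82.6 ± 19.7 CPM in WT libraries. Epcam, an adhesion molecule of epithelium, had 317, 214, 234 and 266 CPM in RAGE null libraries, against 197, 96.4, 126 and 147 CPM in WT libraries, and kept its level in replicate 2 (log2 fold change 0.87 ± 0.28, adjusted p = 0.0385, not called without any 1 of 5 libraries). Of 14 airway markers 1 was called, Tppp3, which rose, whereas 3.53% of all genes were called higher. No airway marker was called without RAGE null replicate 0 or 3 or WT replicate 2 or 3 or with DESeq2. Scgb1a1, the secretoglobin of club cells, had a log2 fold change of 0.24. In bulk libraries, fewer cells of a type and less RNA per cell cannot be told apart.

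**Figure D2:**
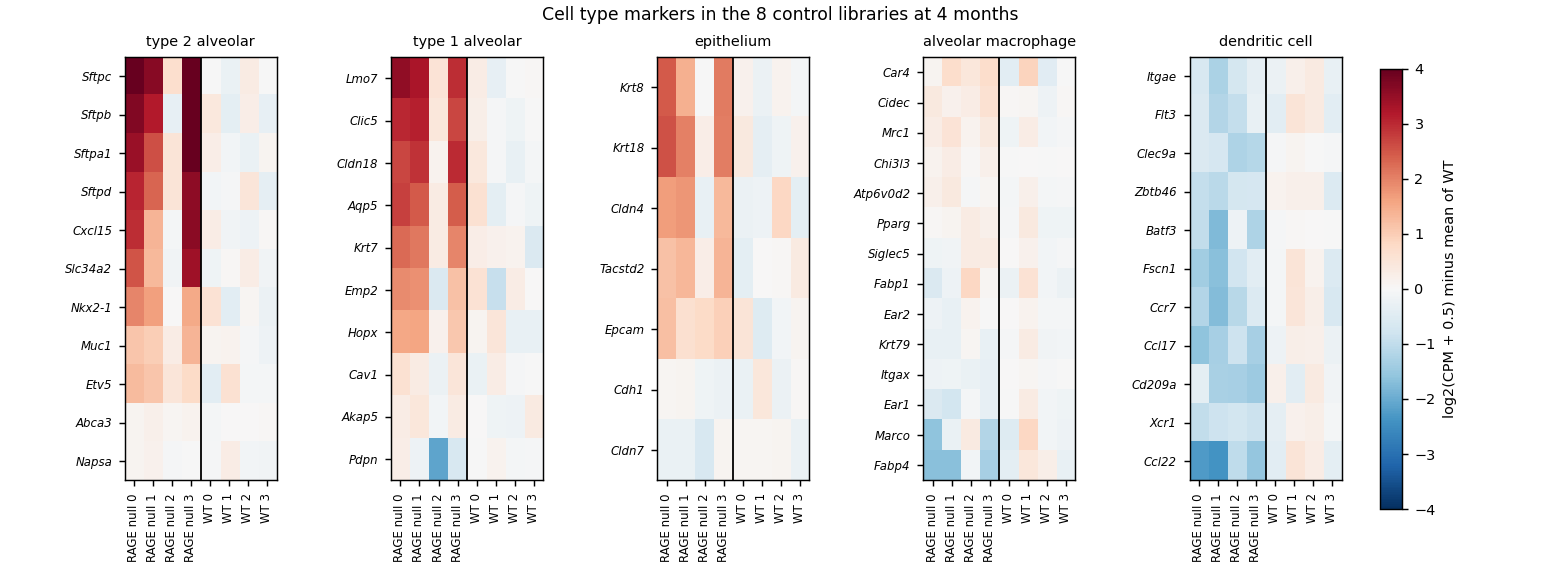
Markers of 5 cell types (rows) in the 8 control libraries (columns, RAGE null left of WT), colored by log2(CPM + 0.5) minus the WT mean of the gene, red above and blue below it. Surfactant genes are dark red in RAGE null replicates 0, 1 and 3 and pale in replicate 2, where Sftpc stood at 3.17 CPM, whereas the dendritic cell markers are mostly blue in all RAGE null libraries.

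Of 28 matrix and growth factor genes tested, 6 rose, 1 fell and 21 were not called, whereas 3.53% of all genes were called higher. Their median log2 fold change was 0.05. Vegfa, the endothelial growth factor that alveolar epithelium secretes, had 5.14, 5.04, 0.546 and 4.26 CPM in RAGE null libraries, against 0.687, 0.769, 1.0 and 0.427 CPM in WT libraries (log2 fold change 2.32 ± 0.54). Sparc, Thbs1, Timp3 and C4b had their lowest RAGE null value in replicate 2 as well, and in all of them that value overlapped the WT values or lay below them. For Thbs1, a matricellular protein that activates TGF-β, the values were 30.6, 9.65, 1.79 and 15.2 CPM in RAGE null and 2.98, 1.97, 1.78 and 3.42 CPM in WT libraries. The epithelial marker sum was low in this library too, and its part in these differences was not tested. Fn1, which encodes fibronectin and is abundant in AM, had 2671, 2189, 2164 and 3418 CPM in RAGE null libraries, against 1293, 1879.5, 1304 and 1307 CPM in WT libraries. It rose by 0.85 ± 0.20 on the log2 scale (adjusted p = 0.0111) with separated groups, replicate 2 included.

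The single decrease of that list was Igf1, the growth factor through which macrophages act on epithelium and matrix. It had 23.3, 21.3, 15.7 and 16.7 CPM in RAGE null libraries, against 48.8, 97.3, 58.8 and 54.4 CPM in WT libraries. All RAGE null values lay below all WT values, and the log2 fold change was -1.77 ± 0.24 (adjusted p = 3.27e-04). Mmp19, a metalloproteinase of macrophages, had 740, 697, 211 and 623 CPM in RAGE null libraries, against 204, 255, 213 and 261 CPM in WT libraries (log2 fold change 1.28 ± 0.32), so that replicate 2 again lay among the WT values, here for a gene that AM express in quantity. Of 12 proteases and inhibitors tested, Mmp19 and Timp3 were the 2 called, both higher, whereas 3.53% of all genes were called higher. Without RAGE null replicate 2, 4 were called. Mmp12, the macrophage elastase, had a log2 fold change of -0.50 (adjusted p = 0.25).

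Among called genes with separate groups and the same minimum level, the largest decreases were in Epas1 and Slc1a3. Epas1, which encodes HIF-2α, lies at chr17:86753907-86833410, on the chromosome of Ager. It had 9.18, 9.14, 4.27 and 7.64 CPM in RAGE null libraries, against 46.8, 81.4, 51.9 and 52.7 CPM in WT libraries. The gap between groups was many times the spread within them, with a log2 fold change of -2.98 ± 0.26 (adjusted p = 4.94e-06). It was the 1 called gene of 11 hypoxia factors and targets tested, whereas 3.43% of all genes were called lower. At an adjusted p under 0.05 without the fold threshold, 2 of the 11 were higher and 1 was lower, whereas 21.3% of all genes passed. Hif1a, the gene of HIF-1α, had a log2 fold change of -0.13. Without RAGE null replicate 2 or WT replicate 3, 2 hypoxia genes were called. Slc1a3, a glutamate transporter, had 4.92, 5.41, 2.23 and 1.66 CPM in RAGE null libraries, against 29.1, 14.9, 25.4 and 28.3 CPM in WT libraries (log2 fold change -2.82 ± 0.29).

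Hsd17b4, a peroxisomal enzyme of fatty acid β-oxidation, had the smallest adjusted p of all named genes. It had 88.0, 94.0, 87.9 and 91.1 CPM in RAGE null libraries, against 329, 374, 314 and 304 CPM in WT libraries, a log2 fold change of -1.87 ± 0.06 (adjusted p = 1.69e-11). Values within each group differed by little. Trim36, a ubiquitin ligase, had 6.54, 4.24, 5.46 and 5.37 CPM in RAGE null libraries, against 18.2, 21.8, 22.4 and 19.1 CPM in WT libraries (log2 fold change -1.92 ± 0.12). Speg, a muscle kinase, had 2.13, 4.68, 2.98 and 2.93 CPM in RAGE null libraries, against 13.8, 16.7, 14.1 and 13.3 CPM in WT libraries (log2 fold change -2.20 ± 0.19). These 3 genes kept their calls under every alternative run.

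Bcam, a laminin receptor, and Mpp7, a polarity scaffold, fell by 2.26 ± 0.28 and 2.20 ± 0.27 on the log2 scale. Lipn, a lipase, 4930502E18Rik and Enpp5, a phosphodiesterase, fell by 2.28, 1.91 and 2.03. In Enpp5, WT replicate 1 stood at 18.8 CPM beside 5.19 to 5.94 CPM in the other WT libraries. In 5 genes that fell, 1 or 2 RAGE null libraries differed from the rest of their group. Gpr56, an adhesion receptor, had 2.06, 1.75, 21.7 and 2.27 CPM in RAGE null libraries, against 39.5, 36.8, 26.1 and 34.8 CPM in WT libraries (log2 fold change -2.22 ± 0.54, adjusted p = 0.0112). Without replicate 2 the Gpr56 log2 fold change was -4.07 (adjusted p = 9.61e-09), and the call was lost with the 8 control libraries alone (adjusted p = 0.0594). Tc2n, a C2 domain protein, had 3.75, 3.22, 4.51 and 34.4 CPM in RAGE null libraries, against 44.3, 46.3, 35.7 and 45.1 CPM in WT libraries, and its call (adjusted p = 0.0375) was lost without any of 7 single libraries.

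Pla2g2d, a secreted phospholipase of resident myeloid cells, had 4.19, 4.31, 0 and 0.0553 CPM in RAGE null libraries, against 6.79, 8.60, 11.3 and 7.76 CPM in WT libraries. Its call (log2 fold change -2.18 ± 0.70, adjusted p = 0.0373) was lost when RAGE null replicate 2 or 3 or WT replicate 1, 2 or 3 was left out. The transcript 2610507I01Rik had 0, 0.0731, 3.37 and 3.82 CPM in RAGE null libraries, against 8.24, 7.15, 6.83 and 8.12 CPM in WT libraries, so that replicates 0 and 1 were close to 0 and the other two were not. Its call was lost with DESeq2 (adjusted p = 0.119) and with the 8 control libraries alone (adjusted p = 0.0955). Stap1, a signaling adaptor of leukocytes, had 2.35, 1.68, 2.78 and 9.02 CPM in RAGE null libraries, against 16.3, 17.9, 21.3 and 15.1 CPM in WT libraries (log2 fold change -2.12 ± 0.46).

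Nrf2 is the transcription factor that binds antioxidant response elements under oxidative stress. Of 29 antioxidant genes driven by Nrf2, 8 fell in RAGE null AM, none rose and 21 were not called, with 27 negative log2 fold changes and a median of -0.57. Genes at large were called lower in 3.43%. Ephx1, an epoxide hydrolase, had 24.9, 22.9, 15.4 and 10.7 CPM in RAGE null libraries, against 43.0, 32.0, 45.4 and 42.3 CPM in WT libraries (log2 fold change -1.15 ± 0.25, adjusted p = 0.00754) and was the 1 called member whose groups did not overlap. Srxn1, which restores peroxiredoxins, had 76.8, 101, 176 and 60.2 CPM in RAGE null libraries, against 223, 134, 337 and 248 CPM in WT libraries. Nqo1, a quinone reductase, had 4.33, 6.36, 14.5 and 4.21 CPM in RAGE null libraries, against 23.1, 8.55, 33.0 and 22.3 CPM in WT libraries. In both genes the highest RAGE null library was replicate 2 and the lowest WT library was replicate 1.

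Prdx1, a peroxiredoxin, Txnrd1, a thioredoxin reductase, Abcc1, an exporter of glutathione conjugates, Sqstm1, an autophagy adaptor, and Osgin1 followed this order of libraries, with log2 fold changes of -0.77, -0.65, -0.80, -0.64 and -1.46. Hmox1, the heme oxygenase, had 578, 782, 1743 and 475 CPM in RAGE null libraries, against 1856, 741, 2929.5 and 2233 CPM in WT libraries, a log2 fold change of -1.12 that missed the call (adjusted p = 0.0546, and 0.00273 without RAGE null replicate 2). Gclm, a subunit of the enzyme that starts glutathione synthesis, had a log2 fold change of -0.80 without a call. Between 1 and 14 members were called when a single library was left out: 14 without WT replicate 1, 13 when RAGE null replicate 2 was left out, 4 without WT replicate 0 or 3, 3 when RAGE null replicate 1 was left out, and 1 when RAGE null replicate 0 or 3 or WT replicate 2 was left out. When the 8 control libraries were fitted alone, 1 member was called.

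The promoters of these genes were searched for the antioxidant response element TGACNNNGC on both strands, in the 250 bases before and 50 bases after the RefSeq start site (GRCm38.p6). It was found in 17.4% of the 8783 tested genes with a promoter in the RefSeq set, and in 8 of the 23 Nrf2 list members with one (34.8%). Of the 7 called members with a promoter, 3 held it. Among all genes called lower it was in 53 of 296 promoters (17.9%), close to the share of all genes. A match describes these letters only and does not show binding. The windows of 2 of these 3 members are shown because their element lies wholly before the start site. Capitals mark the element, which reads here as its reverse complement. Prdx1 lies on the plus strand at chr4:116685446-116685494 and Txnrd1 on the plus strand at chr10:82859094-82859142.
Prdx1: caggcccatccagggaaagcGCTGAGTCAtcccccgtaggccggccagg
Txnrd1: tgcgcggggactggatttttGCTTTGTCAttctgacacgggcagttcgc

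Genes of protein folding in the endoplasmic reticulum (ER) were called in the other direction. XBP1 and ATF6 are transcription factors of the unfolded protein response, which raises chaperones and degradation factors when the ER is loaded with protein. Of 29 ER chaperones and XBP1 or ATF6 targets tested, 9 rose and none fell, 27 had a positive log2 fold change, and the median was 0.37, whereas 3.53% of all genes were called higher. The groups did not overlap in 19 members, all 9 called ones among them, whereas they did not overlap in 20.1% of all genes. Xbp1 itself had 736, 868, 610.0 and 759 CPM in RAGE null libraries, against 459, 409.6, 373 and 472 CPM in WT libraries (log2 fold change 0.80 ± 0.13, adjusted p = 0.00154). Hspa5, the main ER chaperone BiP, had 2518, 1532, 1549.9 and 2242 CPM in RAGE null libraries, against 1365, 1019, 1305 and 1443 CPM in WT libraries (log2 fold change 0.61 ± 0.21, adjusted p = 0.0463, lost without RAGE null replicate 0 or 3 or any WT library).

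Creld2, a folding factor, had 104, 60.9, 61.9 and 96.0 CPM in RAGE null libraries, against 46.9, 36.4, 40.4 and 46.5 CPM in WT libraries (log2 fold change 0.93 ± 0.22). Derl3 and Syvn1, which act in the removal of misfolded proteins, Dnajc3, a co-chaperone that restrains PERK, and Hyou1, an ER chaperone, rose by 1.29, 0.71, 0.61 and 0.66 on the log2 scale. Sdf2l1 and Manf completed the called members. RAGE null replicates 0 and 3 were the highest for Hspa5, Creld2, Derl3 and Syvn1. Leaving out a single library gave 4 to 13 called members, with 4 without RAGE null replicate 0, 5 without RAGE null replicate 3, 6 without WT replicate 1 or 2 and 13 without RAGE null replicate 2. Of the PERK arm of the same response, none of 21 genes tested was called in either direction (median -0.10), nor by DESeq2. At an adjusted p under 0.05 without the fold threshold, 4 were lower and none higher, whereas 21.3% of all genes passed. At an unadjusted p under 0.05, 8 were lower and 2 higher, and 2 were called without RAGE null replicate 2. Atf4 had a log2 fold change of -0.06 and Ddit3, which encodes CHOP, -0.09. Among 20 heat shock genes, 2 were called higher, whereas 3.53% of all genes were. They were Hspa8, the constitutive cytosolic chaperone, and Hspb8, with log2 fold changes of 0.92 ± 0.30 and 2.64 ± 0.58. The number called was 5 without RAGE null replicate 1, 4 without RAGE null replicate 2, and 1 without RAGE null replicate 0 or 3 or WT replicate 0, 1 or 2.

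The ER stress element, CCAAT followed after 9 bases by CCACG, was rare, with a match on either strand in 14 of 8783 promoters (0.159%). It occurred in 9 of the 24 ER list members with a promoter (37.5%) and in 5 of the 7 called ones. Among all genes called higher 5 of 284 promoters (1.76%) held it, these same 5, and among those called lower 0 of 296. The windows are shown because the element is shared by these 5 genes and by few others in the set. All 5 genes lie on the plus strand. Capitals mark the element, as its reverse complement in Derl3 and Creld2. The windows are chr14:118937807-118937865 for Dnajc3, chr10:75893222-75893280 for Derl3, chr19:6046512-6046570 for Syvn1, chr15:88819500-88819558 for Creld2 and chr2:34772005-34772063 for Hspa5.
Dnajc3: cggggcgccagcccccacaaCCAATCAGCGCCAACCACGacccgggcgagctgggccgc
Derl3: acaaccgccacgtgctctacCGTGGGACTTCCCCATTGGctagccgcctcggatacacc
Syvn1: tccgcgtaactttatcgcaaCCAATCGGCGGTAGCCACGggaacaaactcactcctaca
Creld2: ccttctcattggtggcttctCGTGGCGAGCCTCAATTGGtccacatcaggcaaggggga
Hspa5: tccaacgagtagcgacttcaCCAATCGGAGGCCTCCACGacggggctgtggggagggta

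**Figure D3:**
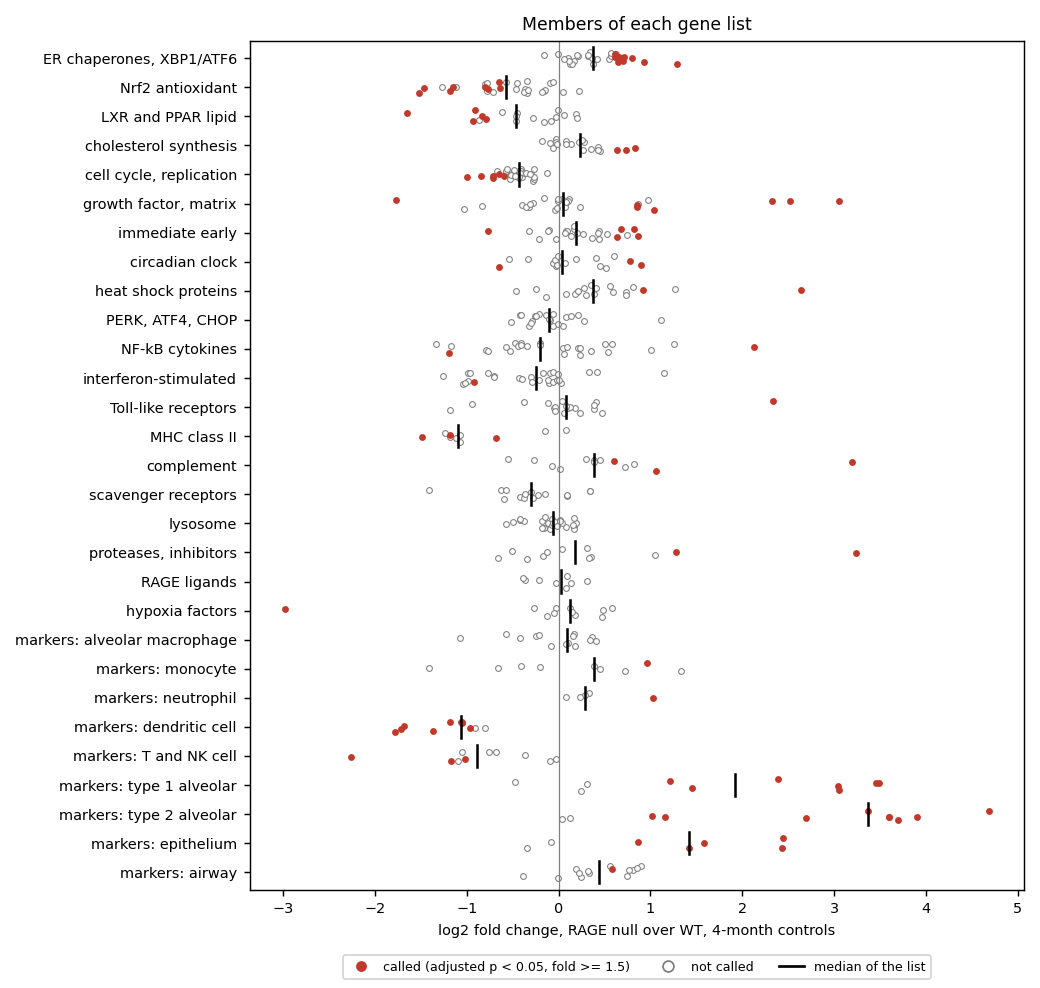
Log2 fold change (x axis, RAGE null over WT, 4-month controls) of every tested member of each gene list (rows), 1 point per gene, red where called and open where not, with a black bar at the median of the list. The medians were 0.37 for ER chaperones and XBP1 or ATF6 targets, -0.57 for Nrf2 genes and -1.10 for MHC class II genes.

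Sterol genes and genes of lipid-sensing nuclear receptors were called in opposite directions. Of 20 genes of cholesterol synthesis and uptake, 3 rose and none fell (median 0.23), whereas 3.53% of all genes were called higher, and 1 was called without WT replicate 0. Stard4, a carrier of cholesterol between membranes, had 111, 108, 99.3 and 92.6 CPM in RAGE null libraries, against 46.9, 66.0, 58.8 and 58.4 CPM in WT libraries (log2 fold change 0.83 ± 0.09, adjusted p = 4.45e-05).

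Of 18 genes of the LXR and PPAR nuclear receptors, which control cholesterol export and fatty acid use, 5 fell and none rose (median -0.46), whereas 3.43% of all genes were called lower. Scd1, a fatty acid desaturase, had 68.6, 61.6, 28.7 and 35.1 CPM in RAGE null libraries, against 129, 157, 162 and 159 CPM in WT libraries (log2 fold change -1.66 ± 0.30, adjusted p = 0.00269). Abca1, the cholesterol exporter, had 299, 252, 249 and 209.5 CPM in RAGE null libraries, against 481, 374, 399 and 488 CPM in WT libraries (log2 fold change -0.79 ± 0.19). Groups were separated in both genes. Lpl, the lipoprotein lipase, had 2453, 2258, 3521 and 2447 CPM in RAGE null libraries, against 4722, 5262, 5752 and 4692 CPM in WT libraries (log2 fold change -0.94 ± 0.27). Scd2, a second desaturase, and Mylip, a ubiquitin ligase induced by LXR, fell by 0.91 ± 0.18 and 0.83 ± 0.13. Abcg1, the cholesterol exporter most used by AM, had a log2 fold change of -0.08 without a call. The number of called LXR and PPAR genes ran from 4 to 6 when single libraries were left out.

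All 31 cell cycle and DNA replication genes tested had a negative log2 fold change (median -0.43), and 6 were called lower, as were 3.43% of all genes. Mcm6, a subunit of the replicative helicase, had 27.5, 27.5, 88.0 and 69.2 CPM in RAGE null libraries, against 108, 116, 103 and 100.4 CPM in WT libraries (log2 fold change -1.0 ± 0.27, adjusted p = 0.0184). Uhrf1, which copies DNA methylation, had 13.7, 14.3, 37.8 and 21 CPM in RAGE null libraries, against 40.4, 39.3, 38.6 and 39.9 CPM in WT libraries (log2 fold change -0.84 ± 0.23). Rrm1 and Rrm2, the subunits of ribonucleotide reductase, fell by 0.59 and 0.64. The summed level of the list was 816, 990 and 1201 CPM in RAGE null replicates 0, 1 and 3 and 1819 CPM in replicate 2, against 1593 to 1778 CPM in WT libraries. Without replicate 2, 25 of the 31 were called lower, without RAGE null replicate 0 or 1 a single member was called, and 3 were called without WT replicate 0. None was called when the 8 control libraries were fitted alone. The proliferation marker Mki67 averaged 166 ± 79.7 CPM in RAGE null and 224 ± 13.3 CPM in WT libraries and was not called, but it was called lower without replicate 2 (adjusted p = 3.69e-04).

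Of 11 dendritic cell markers tested, 8 fell in RAGE null libraries and none rose, with a median log2 fold change of -1.07, whereas 3.43% of all genes were called lower. Ccl22, a chemokine of activated dendritic cells, had 8.96, 8.19, 22 and 15.3 CPM in RAGE null libraries, against 34.0, 64.8, 55.5 and 34.7 CPM in WT libraries (log2 fold change -1.78 ± 0.32, adjusted p = 0.00271). Ccl17, its relative, had 2.72, 3.36, 5.01 and 3.38 CPM in RAGE null libraries, against 8.01, 10.9, 10.8 and 7.76 CPM in WT libraries (log2 fold change -1.36 ± 0.19). The groups were separated for both chemokines. Clec9a and Xcr1, receptors of cross-presenting dendritic cells, fell by 0.97 ± 0.17 and 1.71 ± 0.29, and Xcr1 was under 1.2 CPM in every library. Leaving out 1 library gave 6 to 9 called members, but with a minimum of 20 counts in every library 2 were called, as fewer of them were tested.

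Of 10 MHC class II genes, which present antigen, 3 fell and 7 were not called, whereas 3.43% of all genes were called lower. The 3 were H2-Oa and H2-Ob, which form the modulator of peptide loading, and H2-DMb1, with log2 fold changes of -1.19, -1.49 and -0.68. They lie on chromosome 17 at 0.506, 0.353 and 0.443 Mb from Ager. All 3 are therefore also counted among the calls within 5 Mb of Ager given below. The classical genes H2-Aa and H2-Ab1 had log2 fold changes of -1.12 and -1.07 but were not called (edgeR's quasi-likelihood test, adjusted p = 0.0807 and 0.0748). Cd74 had a log2 fold change of -1.07 and was not called either (adjusted p = 0.0772). The summed level of the list varied within the RAGE null group, at 6366, 5211, 1670 and 2078 CPM in replicates 0 to 3, against 6020 to 10342 CPM in WT libraries. Replicates 2 and 3 were low, replicate 0 fell within the WT range, and without replicate 0 the number called was 8. It was 2 without replicate 2 or 3 and 0 without both, the last chosen after the data were seen (median log2 fold change -0.45). Of 10 T and NK cell genes 3 fell (median -0.89), beside the same 3.43% of all genes. The number called was 5 without RAGE null replicate 0 and 1 without RAGE null replicate 3 or WT replicate 2. The 3 include Il7r, the interleukin 7 receptor, with 5.22, 3.95, 3.32 and 3.38 CPM in RAGE null and 7.71, 8.12, 8.33 and 7.63 CPM in WT libraries.

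Of 27 NF-κB targets, 1 rose and 1 fell (median -0.20), a share close to the 6.97% called among all genes. The 2 NF-κB genes were Ptgs2, the inducible cyclooxygenase, and Traf1, an adaptor of TNF receptors, with log2 fold changes of 2.13 ± 0.71 and -1.19 ± 0.31. Ptgs2 was 0.298 CPM in RAGE null replicate 2 and 1.90 to 4.85 CPM in the others, and without replicate 2 the number of called NF-κB targets was 10. It was 4 without WT replicate 1, 0 without WT replicate 2, and 1 when RAGE null replicate 0 or 3 or WT replicate 0 was left out. Tnf had a log2 fold change of -0.41 and Il1b of 1.26, neither of them called (adjusted p = 0.404 and 0.0522, and 0.044 and 0.00889 without replicate 2). Of 28 interferon-stimulated genes 1 fell, Isg15, by 0.92 ± 0.28, a share close to the 3.43% called lower among all genes. A negative sign was found in 23 (median -0.25). The number called was 0 without RAGE null replicate 0 or 1 or WT replicate 2. It was 6 without RAGE null replicate 2, 4 without WT replicate 0 and 3 without WT replicate 1. Of 19 genes of Toll-like receptors and their adaptors Cd14 alone was called, whereas 3.53% of all genes were called higher. At an adjusted p under 0.05 without the fold threshold, 6 of the 19 were higher and none lower, whereas 21.3% of all genes passed. Tlr4 and Irak2 were among these 6, with log2 fold changes of 0.39 and 0.47. Of 8 genes of RAGE ligands and partners tested, none was called by edgeR's quasi-likelihood test or by DESeq2, with 2 at an unadjusted p under 0.05 and 1 called without RAGE null replicate 0. Hmgb1, S100a8 and S100a11 had log2 fold changes of 0.09, 0.08 and -0.03.

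Among genes shared by other leukocytes, Csf3r, the receptor of granulocyte colony-stimulating factor, had 77.1, 64.3, 75.5 and 72.1 CPM in RAGE null libraries, against 38.2, 23.4, 38.8 and 42.0 CPM in WT libraries (log2 fold change 1.03 ± 0.17, adjusted p = 0.00148). It was the 1 of 5 neutrophil markers called, and Vcan, a proteoglycan of monocytes, was the 1 of 9 monocyte markers (log2 fold change 0.96). Both were higher, as were 3.53% of all genes. The number of monocyte markers called was 3 without RAGE null replicate 2 and 2 without WT replicate 3. S100a8, a calgranulin of neutrophils, averaged 9.02 CPM in RAGE null and 8.36 CPM in WT libraries without a call. C5ar1, the receptor of the complement fragment C5a, rose by 0.60 ± 0.18. Of 24 immediate early genes 4 rose and 1 fell (median 0.18), whereas 3.53% of all genes were called higher and 3.43% lower. The number called was 0 without WT replicate 1 or 2, 1 without RAGE null replicate 0 or 3, and 3 without RAGE null replicate 1 or 2 or WT replicate 0. Junb, a subunit of AP-1, had 179, 146, 148 and 183 CPM in RAGE null libraries, against 84.0, 105, 111 and 110.2 CPM in WT libraries. Hemoglobin transcripts marked a single library: Hbb-b1 stood at 145 CPM in RAGE null replicate 0, against 1.24 to 5.37 CPM in the other RAGE null and 0.122 to 2.82 CPM in WT libraries, and none of the 3 red cell and platelet genes called was called without that library, without WT replicate 1, 2 or 3, or by DESeq2.

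Neighbors of Ager on chromosome 17 differed more often than genes at large. Within 5 Mb, 24 of 194 genes tested (12.4%) were called, 10 higher and 14 lower, against 6.97% of all genes. The share was 11.25% within 2 Mb and 11.5% within 10 Mb. Rnf5, a ubiquitin ligase at chr17:34601091-34603690, lies directly beside Ager. It had 52.2, 49.8, 43.2 and 52.0 CPM in RAGE null libraries, against 29.5, 27.9, 31.8 and 29.5 CPM in WT libraries (log2 fold change 0.73 ± 0.08, edgeR's quasi-likelihood test, adjusted p = 3.96e-05). The transcript Gm20463 inside Rnf5 had the same pattern, and since no source used here gives the read strand, the 2 overlapping genes may share reads. Ager, Rnf5 and Gm20463 thus all had groups that did not overlap, as did 20.1% of all genes.

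Histocompatibility genes of the same region moved in both directions. H2-T10, given above, rose, whereas H2-M3 and H2-T23, nonclassical class I genes as well, fell by 0.92 and 0.78 on the log2 scale. H2-M2, chosen after its values were seen, had 0.294, 0.439, 1.24 and 0.277 CPM in RAGE null libraries, against 7.33, 4.64, 5.39 and 7.88 CPM in WT libraries (log2 fold change -3.37 ± 0.34, adjusted p = 2.57e-05). These genes have near-identical relatives, so their reads may be divided between them or lost. Glo1, which detoxifies methylglyoxal, the precursor of many RAGE ligands, rose by 0.95. Chromosome 17 held 65 calls among 705 genes (9.22%), a lower share than on chromosome 18 (12.8% of 298), chromosome 1 (11.5% of 763) and chromosome 12 (10.4% of 443).

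In some genes libraries of 1 genotype lay far apart, at 4 months or at 7 days. These genes were chosen after their values were seen. Ccbe1, a matrix protein needed for lymphatic growth, had 0.147, 0, 0.0496 and 0.0553 CPM in RAGE null libraries, against 9.85, 16.3, 16.8 and 11.1 CPM in WT libraries (log2 fold change -7.65 ± 0.40, adjusted p = 8.73e-09). After 4 months of CS it was at most 0.131 CPM in RAGE null and 15.4 to 23.4 CPM in WT libraries, yet 3 of 4 RAGE null controls at 7 days held 3.37 to 7.20 CPM and the fourth held none. Greb1, a cofactor of estrogen receptor, had 52.0, 47.7, 15.8 and 0.166 CPM in RAGE null libraries, against 0.153, 0.0855, 0.0555 and 0.0611 CPM in WT libraries (log2 fold change 8.28 ± 1.28). At 7 days Greb1 was present in all 3 WT controls, at 10.2 to 20.4 CPM, and in 2 of 4 RAGE null controls.

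Hsd17b4 separated the genotypes at 4 months, and its groups overlapped at 7 days. Beside the narrow 4-month values given above, it had 88.9 to 97.1 CPM in RAGE null and 286 to 309 CPM in WT mice after 4 months of CS. At 7 days the RAGE null controls held 84.4, 198, 183 and 317 CPM and the WT controls 281, 170 and 182 CPM. Nnt, the mitochondrial transhydrogenase, which is known to carry a deletion in some C57BL/6 substrains, had 94.9, 100.1, 71.2 and 49.97 CPM in RAGE null libraries, against 48.7, 51.0, 51.2 and 51.1 CPM in WT libraries, so that RAGE null replicate 3 matched WT and replicate 2 lay between. Replicates 2 and 3 were nearer to WT than replicates 0 and 1 for Greb1 and Nnt. RAGE null libraries thus differed among themselves at these genes, and what sets them apart was not tested.

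**Figure D4:**
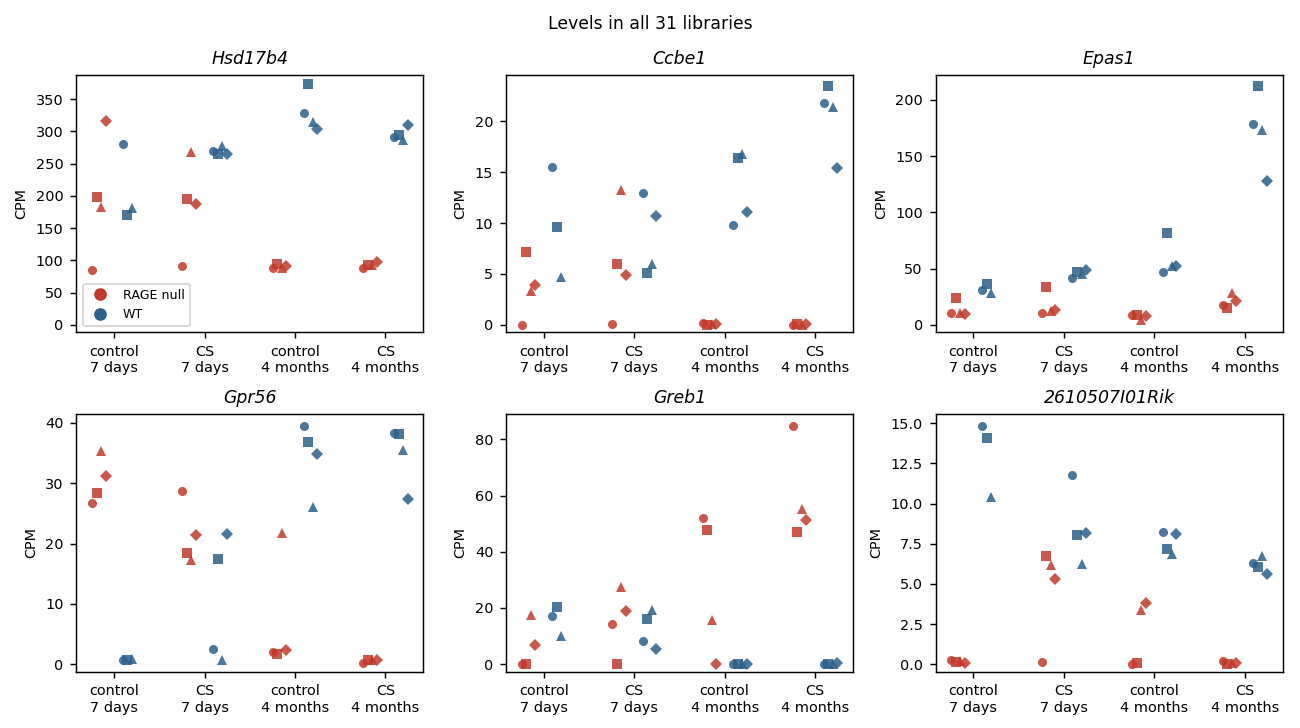
Level (CPM, linear axis) of 6 genes in all 31 libraries by time and exposure, 1 point per library, with RAGE null (red) left of WT (blue) in each pair. Hsd17b4 separates the genotypes at 4 months, where RAGE null controls held 87.9 to 94.0 CPM and WT controls 304 to 374 CPM, but not in the 7-day controls, and Gpr56 is high in RAGE null controls at 7 days and in WT controls at 4 months.

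The 7-day controls, 4 RAGE null and 3 WT libraries from other mice, were set beside the 4-month controls. At 7 days 632 of 13220 genes (4.78%) were called, 398 higher (3.01%) and 234 lower (1.77%). Called at both times in the same direction were 214 genes, which is 23.5% of the 4-month calls and 33.9% of the 7-day calls, and 10 were called in opposite directions. Of the 876 4-month calls tested at 7 days, 754 (86.1%) had the same sign. Chromosome 17 held 33 of the shared calls, 4.68% of its tested genes, and no other chromosome more than 2.75%. Crim1, Emilin2, H2-T10 and Rnf5 had 7-day log2 fold changes of 2.44, 1.58, 1.98 and 0.84. The epithelial markers were higher in RAGE null mice at 7 days too, with log2 fold changes of 2.16 for Sftpc, 3.21 for Clic5 and 2.65 for Sftpb.

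Other differences changed between the time points. A test of the change in the genotype difference, in a fit of all 31 libraries, called 230 of 13408 genes (1.72%; 1.24% with a positive and 0.477% with a negative change), but 25 when only the 15 control libraries were fitted. Cd14 had a log2 fold change of 0.27 at 7 days, and its difference between the times was 2.06 (edgeR's quasi-likelihood test, adjusted p = 0.0116). Scd1 was higher in RAGE null mice at 7 days, at 39.4 to 77.1 CPM against 30.5 to 40.1 CPM in WT controls, and lower at 4 months, a difference of -2.32 (adjusted p = 0.00236). Gpr56 had 26.8 to 35.3 CPM in RAGE null and 0.688 to 0.898 CPM in WT controls at 7 days, the reverse of its 4-month pattern, with a difference of -7.54 (adjusted p = 7.65e-04). Stard4 changed by 0.84 (adjusted p = 0.00236). Scd1, Gpr56 and Stard4 kept their calls with the control libraries alone (adjusted p = 0.0195, 0.00864 and 0.0497), and Cd14 did not (0.0677). The mice of the 2 times differ in age as well as in the length of the control exposure, and these cannot be told apart.

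**Figure D5:**
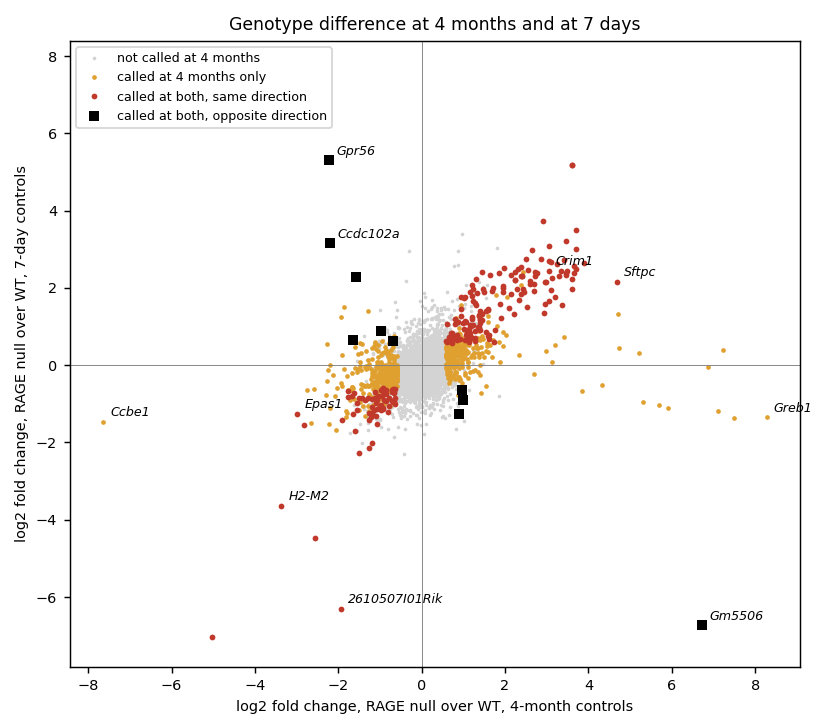
Log2 fold change (RAGE null over WT) in 4-month controls (x axis) against 7-day controls (y axis), 1 point per gene tested at both times, with 876 of the 909 4-month calls shown (orange where called at 4 months only, grey where not called at 4 months). Genes called at both times in the same direction (214, red) lie mostly upper right and lower left, and 10 (black squares), Gpr56 and Gm5506 among them, were called in opposite directions.

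Among mice exposed to CS for 4 months, the genotype difference was called in 644 genes (4.94%), 256 higher (1.96%) and 388 lower (2.97%) in RAGE null mice. The libraries of the CS comparison are other than those of the controls. Called in both exposures in the same direction were 294 genes, 32.3% of the control calls and 45.7% of the CS calls, and 5 were called in opposite directions. Crim1, Epas1 and Hsd17b4 also differed after CS, with log2 fold changes of 2.45, -3.07 and -1.67. Epas1 averaged 20.6 CPM in RAGE null and 173 CPM in WT mice after CS. Of the ER genes none was called higher after CS (median -0.03). Xbp1 had a log2 fold change of 0.17 and Hspa5 of 0.08 there, although the difference between the exposures was not called for either (adjusted p = 0.219 and 0.487). Called in all 3 comparisons in the same direction were 85 genes, 25 of them on chromosome 17.

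The difference between the control and CS contrasts was itself tested, and 5 genes were called (0.0383%; 0.023% with a positive and 0.0153% with a negative change), with 8 at an adjusted p alone and 1570 at an unadjusted p under 0.05. The leading 3 belong to the circadian clock, of which 16 genes were tested in controls (2 higher, 1 lower, median 0.03). Of all genes, 3.53% were called higher and 3.43% lower in controls. The hour of day at which mice were lavaged is not given in the sources used here. Nr1d1, the clock repressor REV-ERBα, had 47.1, 50.9, 36.3 and 34.4 CPM in RAGE null libraries, against 29.4, 24.0, 20.9 and 23.8 CPM in WT libraries, a log2 fold change of 0.78 ± 0.20 (adjusted p = 0.0151). After CS it had 9.09, 8.53, 7.06 and 5.78 CPM in RAGE null and 31.2, 34.6, 21.1 and 48.6 CPM in WT libraries. The genotype difference thus had opposite signs in the 2 exposures, and the contrasts differed by 2.93 ± 0.30 on the log2 scale (edgeR's quasi-likelihood test, adjusted p = 2.84e-04). For Nr1d2, its relative REV-ERBβ, and Cry1, another repressor of the clock, the contrasts differed by 1.57 ± 0.16 and -1.0 ± 0.15.

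Per2, a core clock gene, had 37.2, 39.5, 24.0 and 34.7 CPM in RAGE null controls, against 18.3, 22, 14.4 and 17.3 CPM in WT controls (log2 fold change 0.89 ± 0.19), and Bhlhe41, a repressor of the clock, fell by 0.65 ± 0.20. Of the 16 clock genes, 6 were called without RAGE null replicate 2 and 1 was called without WT replicate 2. The other genes called were Zeb1, a transcriptional repressor, and Nr1h3, which encodes LXRα, with differences between the contrasts of -0.88 ± 0.15 and 0.60 ± 0.10.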

How the data were processed

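RNA of pelleted bronchoalveolar lavage cells was selected for integrity, and libraries were made with an oligo dT kit and sequenced as single-end reads. Per the study's methods and the submitters' notes, the authors aligned reads to mm10 with Novoalign, dropped those that matched several places and counted them per gene with USeq. The deposited table gives raw counts for 13521 genes, and no gene has a largest count under 20, so it was filtered beforehand. Its FPKM values and the authors' own comparison columns (fold changes and adjusted p-values) were not used, and 0 columns of other samples were present. The strand of the reads is not given in the sources used here, and 4375 of the genes overlap another, so these may share reads.

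Counts were tested with edgeR 4.0.16 in R 4.3.3 (filterByExpr with a minimum count of 10 and a minimum total of 15, TMM scaling, quasi-likelihood F-test, Benjamini-Hochberg adjustment). The 16 libraries of 4 months shared 1 fit for the control and CS contrasts, the 7-day controls were fitted with their own time point, and the change between times was tested over all 31 libraries. Calls needed an adjusted p below 0.05 together with a change of 1.5-fold or more. Ager was also compared by an exact permutation test of CPM. DESeq2 1.42.0, its size factors, other filters, the 8 control libraries alone, a replicate block and each library left out were run as alternatives. The code was tested on simulated data with 200 changed genes. Promoter sequences are from RefSeq (GRCm38.p6, the build of mm10).

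Groups come from the labels. Replicate numbers did not pair the libraries (r of same-numbered deviations 0.0723, -0.0339, 0.151 and 0.00392). The genes named are Ager, the 15 called genes with the largest change in each direction among those with separate groups and a mean log2 CPM of 1 or more, and up to 4 members of each list by p. Increases include 2 identifiers of A930015D03Rik. Ccbe1, H2-M2, Greb1, Nnt, Gm5506, neighbors of Ager and further list members were named after their values were seen. Some list members are not reported here. The members and lists were chosen with earlier results of these data known. Fits draw on 4 libraries a group and on 12769797 to 34492288 counts per library, which sets the precision for rare genes.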

Additional observations from a re-analysis of the deposited data

Results flagged for a closer look

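Some libraries lay far from the other 3 of their group. Chance alone picks about 1 in 20 groups of 4, and here 19 of 260 groups of named genes (11 RAGE null, 8 WT) and 3 of 20 groups of marker sums did so. In RAGE null replicate 2 these were Gpr56 at 21.7 CPM, Sqstm1 at 1024, Lpl at 3521 and H2-M2 at 1.24 CPM. In RAGE null replicate 3 they were Stap1 at 9.02 and Tc2n at 34.4 CPM, in RAGE null replicate 1 Abcg1 at 1615 and Hif1a at 182 CPM, and in RAGE null replicate 0 Hbb-b1 at 145, H2-Ob at 1.62 and S100a8 at 20.9 CPM. In WT replicate 1 they were Enpp5 at 18.8, Fn1 at 1879.5, Cry1 at 33.5 and S100a8 at 6.86 CPM, in WT replicate 0 H2-T10 at 4.43, Scd1 at 129 and Nnt at 48.7 CPM, and in WT replicate 3 Ddit3 at 22.8 CPM. The summed red cell and platelet genes stood at 209.9 CPM in RAGE null replicate 0 and 7.25 CPM in WT replicate 0, and the summed AM markers at 24157 CPM in WT replicate 1.

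Of the named genes, 22 had a genotype difference that changed between the times (log2 fold change at 4 months minus that at 7 days, edgeR's quasi-likelihood test, adjusted p under 0.05), and 3 of them, Scd1, Gpr56 and Stard4, kept the call with the 15 control libraries alone. The change was positive in Ager (1.28), Cd14 (2.06), 2610507I01Rik (4.35), Nr1d1 (1.02), Nr1d2 (0.76), Stard4 (0.84), Csf3r (1.29), Greb1 (9.61) and Gm5506 (13.46). It was negative in Epas1 (-1.74), Bcam (-2.13), Gpr56 (-7.54), Mpp7 (-2.21), Trim36 (-1.38), Hsd17b4 (-1.77), Igf1 (-1.12), Cry1 (-0.61), Mylip (-0.67), Scd1 (-2.32), Abca1 (-0.96), Ccl22 (-1.52) and Ccbe1 (-6.19). Hsd17b4, for example, had a log2 fold change of -1.87 at 4 months and -0.11 at 7 days. Gm5506, a predicted gene, had 4.55, 9.50, 0.0496 and 0 CPM in RAGE null and at most 0.0763 CPM in WT controls at 4 months, so its values rest on 2 libraries.

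Between controls and CS at 4 months the genotype difference (control minus CS, log2 scale) differed in Nr1d1 (2.93), Nr1d2 (1.57), Cry1 (-1.0), Zeb1 (-0.88) and Nr1h3 (0.60).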

How the results depend on the processing

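The 909 calls of the 4-month controls became 939 with DESeq2, 912 with its size factors, 1037 without the filter and 918 with a replicate block, and no call shared with an alternative changed sign. With at least 20 counts in every library, where fewer genes were tested, 554 were called, with the 8 control libraries alone, where the spread rests on fewer libraries, 604, and without the fold threshold 2777. Leaving out 1 library gave 647 to 1481, the highest without RAGE null replicate 2. In alternatives chosen after the data were seen, 498 genes were called without RAGE null replicates 0 and 1 and 1454 without RAGE null replicates 2 and 3. The cause of these shifts was not tested. The Ager difference ran from 1.28 to 1.69 CPM over single libraries left out. Of 7-day calls (632), 241 to 830 were made with 1 library left out, 419 without RAGE null replicate 2 and 241 without WT replicate 1, and 546 with the replicate block. The change between times (230 calls) gave 25 with the 15 control libraries alone and 127 to 436 without single 4-month RAGE null libraries (127 without replicate 1, 436 without replicate 2). The replicate block left 4 of the 5 calls between controls and CS.

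Of the called genes named or in a list, none changed sign under any alternative, and of the combinations of gene and alternative 361 lost the call and 1836 kept it. Among named genes without a call, leaving out 1 library gave log2 fold changes of -0.173 to 0.0894 for Cdh1 (without WT replicates 0 and 1), -0.0089 to 0.149 for Napsa (without WT replicates 3 and 1), -0.745 to 0.347 for S100a8 (without RAGE null replicates 0 and 2), -0.146 to 0.0035 for Abcg1 (without WT replicate 2 and RAGE null replicate 1) and -0.153 to 0.0139 for Ddit3 (without RAGE null replicate 0 and WT replicate 3). Without RAGE null replicates 0 and 1, Napsa was at -0.0554, S100a8 at -0.98, Atf4 at 0.0033 and Hmgb1 at -0.0252. Without RAGE null replicates 2 and 3, Cdh1 was at 0.0546 and Mmp12 at 0.0248. With the replicate block S100a8 was at -0.084. Genes under about 1 CPM rest on few counts, and differences there may not be detectable at this depth.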
